A study of Mus musculus with 32 samples.

Results

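Respiratory complex I, NADH:ubiquinone oxidoreductase, was followed at the transcript level in mouse CD4+ T cells through the genes of its nuclear-encoded subunits. The members were the gene rows whose symbols start with Ndufa, Ndufb, Ndufc, Ndufs or Ndufv and that are not assembly factors, which gave 38 of the 24302 genes listed. They were split by place in the enzyme into 10 genes of the NADH module, 6 of the ubiquinone module, 9 of the proximal and 10 of the distal membrane arm, and 3 others (Ndufab1, Ndufa4 and Ndufa4l2). All 38 are annotated as protein-coding. The 7 subunits encoded by mitochondrial DNA were not analysed here.

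Bulk poly(A) RNA sequencing covered 32 libraries in 8 groups of 4. All cells were CD4+ T cells of C57BL/6J mice, taken from the spleen together with lymph nodes (inguinal, axillary). The ages of the mice are not stated in the labels. The genotype labels were WT and KO, the KO being of Nr4a1, the gene of the nuclear receptor Nur77. Each genotype had an unstimulated group (labelled control), a group given anti-CD3 and anti-CD28 antibodies (stimulated, 12 h), and stimulated groups that also received XCT790 or the compound named CompA, each at 10 µg/ml. XCT790 acts on ERR-alpha, an orphan nuclear receptor encoded by Esrra, as its inverse agonist. The labels do not say what CompA is, which vehicle was used, or whether the 4 libraries of a group represent different animals, so p-values measure only how these libraries vary, and that variation may be technical.

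Complex I is the largest enzyme of the respiratory chain and its main entry point for electrons. Its peripheral arm, in the mitochondrial matrix, takes electrons from NADH at a flavin in the NADH module and passes them over iron-sulfur clusters to ubiquinone in the ubiquinone module. Its membrane arm pumps protons, and a set of accessory subunits surrounds the catalytic core. Naive T cells are small and quiescent, and antigen receptor and CD28 signals start growth in which mitochondrial mass and respiratory capacity rise. ERR-alpha, NRF1, GABPA (an ETS factor) and YY1 are textbook regulators of nuclear genes for mitochondrial proteins.

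Promoter windows show what the members share in sequence. RefSeq windows (GRCm38.p6, 250 bases before to 50 after the start) were matched by symbol for 33 of the 38 members, 2 of which had 2 windows. The members' windows had a median GC content of 59.0%, against 52.7% over all 32851 windows kept. Both strands were searched for 4 motifs, none of which contains another: TCAAGGTCA for ERR, CCGGAAG for ETS factors, AAGATGGC for YY1, and the palindromic 10-base core of the NRF1 element. The YY1 motif was in the windows of 7 of 33 members (21.2%), against 3.19% of the 27025 genes with a window kept. The ETS motif was in 4 (12.1%, against 9.93% of all genes), the NRF1 element in 1 (3.0%, against 1.07%) and the ERR motif in 0 of 33 (0.47% of all genes). A match is a description of letters and not of binding, and no match says only that these letters are not in this window.

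The 7 members with the YY1 motif all carried it on the strand of the gene and just after the annotated start, with its first base at position 23 to 39 counted from the start. The letters of this motif include ATG, and whether that ATG is the start codon of each gene was not tested. The shared place is therefore not read as a trait of YY1 sites. Stretches of 30 bases are shown 5′ to 3′ on the gene's strand (GRCm38.p6), with the motif in capitals.
Ndufa3 (chr7:3617377-3617406, +): cttgtcgccgccaagaacAAGATGGCcggg
Ndufa9 (chr6:126849104-126849133, -): cgtgaggcattgtgggagAAGATGGCggcc
Ndufb8 (chr19:44555393-44555422, -): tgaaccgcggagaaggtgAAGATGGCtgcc
Ndufc1 (chr3:51408922-51408951, -): aggcggagcctgcggaacAAGATGGCgccg
Ndufs4 (chr13:114388048-114388077, -): ctggcgtttgcctacaggAAGATGGCggcg
Ndufs6 (chr13:73328438-73328467, -): gggtcaagggtcaccggcAAGATGGCggcg
Ndufs7 (chr10:80249455-80249484, +): tgtctgaaggccgaggccAAGATGGCggcg

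Whole windows of 300 bases follow for the member with the NRF1 element, for a core subunit with the ETS motif, and for the NADH module members with the strongest rise and with the lowest change on stimulation. Capitals mark the motif. The last pair carried none of the 4 motifs.
Ndufa11 (chr17:56717512-56717811, +): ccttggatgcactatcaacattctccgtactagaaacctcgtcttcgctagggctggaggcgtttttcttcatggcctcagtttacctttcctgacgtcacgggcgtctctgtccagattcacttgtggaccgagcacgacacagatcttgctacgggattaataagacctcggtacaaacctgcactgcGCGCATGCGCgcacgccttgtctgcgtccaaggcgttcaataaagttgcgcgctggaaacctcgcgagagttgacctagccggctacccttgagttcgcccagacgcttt
Ndufs8 (chr19:3912725-3913024, -): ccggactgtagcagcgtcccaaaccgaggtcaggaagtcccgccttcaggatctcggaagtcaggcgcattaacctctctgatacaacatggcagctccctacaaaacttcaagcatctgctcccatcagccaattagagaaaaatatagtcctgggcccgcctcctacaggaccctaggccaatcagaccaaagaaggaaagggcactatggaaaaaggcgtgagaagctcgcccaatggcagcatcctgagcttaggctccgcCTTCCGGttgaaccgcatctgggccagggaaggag
Ndufa12 (chr10:94198785-94199084, +): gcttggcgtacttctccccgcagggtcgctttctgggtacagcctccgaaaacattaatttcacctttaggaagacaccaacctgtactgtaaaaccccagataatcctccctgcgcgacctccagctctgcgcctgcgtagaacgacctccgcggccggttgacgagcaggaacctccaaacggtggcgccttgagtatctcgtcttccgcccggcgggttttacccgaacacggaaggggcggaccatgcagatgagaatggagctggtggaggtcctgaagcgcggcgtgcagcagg
Ndufv3 (chr17:31519865-31520164, +): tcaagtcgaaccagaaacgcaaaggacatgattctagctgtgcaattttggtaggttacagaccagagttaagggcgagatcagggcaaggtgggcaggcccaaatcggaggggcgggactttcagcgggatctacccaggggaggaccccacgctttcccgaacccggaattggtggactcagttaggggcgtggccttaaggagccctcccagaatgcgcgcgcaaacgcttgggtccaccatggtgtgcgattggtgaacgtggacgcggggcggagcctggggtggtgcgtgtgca

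Libraries held 16020288 to 23687940 gene counts. Levels are CPM, a gene's counts relative to the TMM-scaled total of its library, as mean ± SD of 4 libraries, and changes are log2 fold changes ± SE from 1 edgeR quasi-likelihood fit, called at a Benjamini-Hochberg adjusted p under 0.05 over 12332 genes. Nr4a1 itself was not lower in the KO-labelled libraries (before stimulation 94.2 ± 10.9 CPM, against 71.6 ± 21.4 CPM in WT), so the groups are called KO-labelled throughout and every genotype difference is one between libraries so labelled. CD4 T cell markers (Cd3d, Cd3e, Cd3g, Cd4, Lck and Trat1) summed to 1860 to 4180 CPM in every library. Markers of myeloid and dendritic cells (17 genes) summed to 3920 to 6280 CPM in WT and 1350 to 3440 CPM in KO-labelled unstimulated libraries. They summed to 944 to 2470 CPM in WT stimulated libraries without inhibitor and to 17.5 to 75.9 CPM in the other 5 stimulated groups. The sum of stroma markers (5 genes) followed the same order, at 13.7 to 47.6, 10.4 to 23.4, 2.46 to 18.1 and at most 0.268 CPM. In WT unstimulated, KO-labelled unstimulated and WT stimulated libraries this sum was nearly all Col14a1 (means of 27.6, 14 and 7.87 CPM). Every other stroma marker averaged at most 0.387 CPM in any group, so the order is that of Col14a1 and not of the list. B cell markers (9 genes) summed to 26 to 734 CPM, CD8 T cell markers (2 genes) to 16.6 to 71.3 CPM and NK cell markers (4 genes) to 0.214 to 35.8 CPM over all libraries. The WT stimulated libraries thus stood apart. To measure this, 112 genes were chosen with a mean of at least 10 CPM (library totals) in WT unstimulated cells. They were also chosen to be under 0.02 of that mean in each of the other 5 stimulated groups. Their low summed level there, 0.00135 to 0.00563 of the WT unstimulated mean, is thus set by the choice. It was 0.317 to 0.752 in KO-labelled unstimulated libraries. In WT stimulated libraries this share was 0.161 to 0.465, highest in replicate 2. For each comparison that uses the WT stimulated group, the members' count or median is therefore also given with that share of the mean unstimulated profile subtracted. A second form of this alternative, with the library of the same run, was added after seeing the data. The ratios, the other gene lists and most single genes are not given with the share subtracted.

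Of the 38 members, 36 passed the filter on low counts. Ndufs5, a small proximal-arm subunit, was listed at 0 in all 32 libraries. Of its 50-base transcript windows 21.7% also occur in other genes, such as BC002163. Ndufa4l2, the paralogue of Ndufa4, had 5 counts in total over 4 libraries. In bulk samples fewer cells of a type and less RNA per cell cannot be told apart. Counts may also be shared where genes overlap on the opposite strand (Ndufb6 with Smim27, Ndufa13 with Tssk6, Ndufb5 with Mrpl47) or have near copies (18.3% of Ndufb4 windows, most in Ndufb4c), since the strand setting of the counting is not known here.

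Summed over the 38 genes, complex I transcripts stood at 4100, 2300, 2970 and 2500 CPM in the 4 WT unstimulated libraries and at 4910, 4350, 4670 and 3710 CPM in the WT stimulated ones. In KO-labelled cells the sums were 1920, 2130, 1940 and 2210 CPM without stimulation and 6100, 5670, 3930 and 4690 CPM with it. In both genotypes the stimulated libraries were higher on average, but WT unstimulated replicate 1 lay above WT stimulated replicate 4, while the KO-labelled groups did not overlap. WT unstimulated replicate 1 also had the most reads listed as not uniquely aligned of its group (91.3 for every 100 gene counts, against 68.9 to 82.7). In the 3 stimulated KO-labelled groups replicate 3 had the lowest complex I sum. Over all 8 groups the library with the lowest sum was also the one with the fewest not uniquely aligned reads in 6. The library with the highest sum was the one with the most such reads in 4 of the 8. The part of these read and marker differences in the results was not tested.

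**Figure D1:**
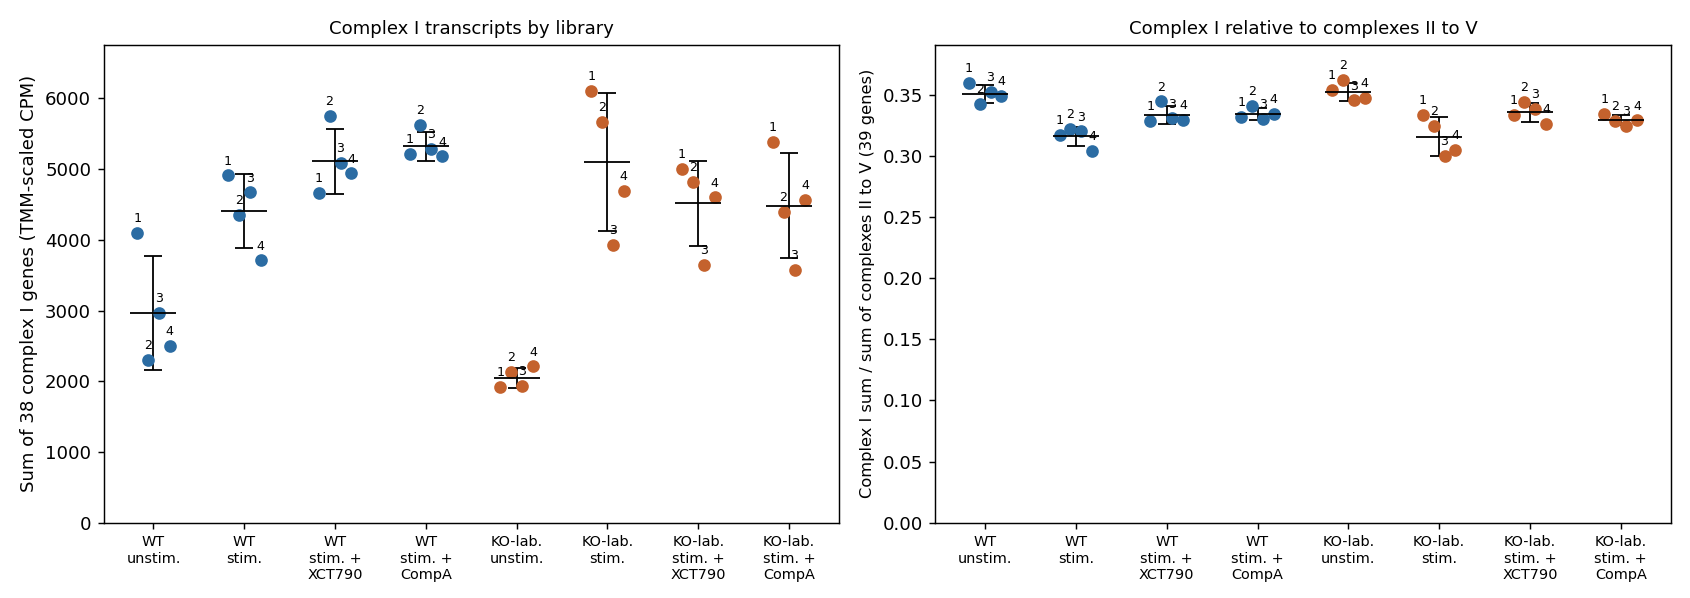
Left, summed level of the 38 complex I genes (TMM-scaled CPM) in each library of the 8 groups; right, that sum divided by the sum of 39 genes of complexes II to V. Points are libraries with their replicate number, bars are the mean ± SD of 4; the sum is lowest in KO-labelled unstimulated cells (2050 ± 143 CPM), whereas the ratio stays between 0.299 and 0.362 in all libraries.

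The ratio of complex I to the other respiratory complexes varied far less than the sum. The ratio of summed CPM, complex I over 39 genes of complexes II to V, was 0.342 to 0.358 in WT unstimulated and 0.304 to 0.322 in WT stimulated libraries. In KO-labelled cells it was 0.346 to 0.362 without and 0.299 to 0.333 with stimulation. In each genotype every unstimulated library lay above every stimulated one. With XCT790 it was 0.327 to 0.344 in WT and 0.327 to 0.343 in KO-labelled cells, and with CompA 0.33 to 0.341 and 0.324 to 0.334. In WT the libraries of both inhibitor groups lay above those of stimulation alone, whereas in KO-labelled cells they overlapped. A library's scaling cancels in this ratio, which weights each gene by its level.

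Levels per kilobase of exon differed widely among members. The length used joins all annotated exons of a gene (6883 bases for Ndufab1, 572 for Ndufa2). A long annotation thus lowers the level per kilobase, whatever transcript the cells make. In WT unstimulated cells the lowest mean level was that of Ndufab1 (3.57 CPM per kb, geometric mean) and the highest that of Ndufa2 (183 CPM per kb). The SD over the 36 members was 1.34 on the log2 scale of CPM per kb in WT unstimulated and 1.17 in WT stimulated cells, and 1.31 and 1.17 in KO-labelled cells. By this measure, which depends on annotated length, the members were more alike in level after stimulation. In stimulated cells Ndufb6, a distal-arm accessory subunit, had the highest level in both genotypes (236 and 274 CPM per kb). Across the 36 members, the WT unstimulated level per kb and the log2 change of the KO-labelled cells, which share no library, had a Spearman correlation of -0.45 (Pearson -0.43). The level per kb depends on annotated length, and members share annotation and reads within a library, so this is a description only.

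Stimulation in WT cells raised most complex I transcripts. Of 36 members, 27 rose and 1 fell, where 34.5% of all genes tested rose and 38.8% fell. The median log2 change was 0.71 over the members and -0.11 over all genes. By place in the enzyme, 6 of 10 NADH module genes, 6 of 6 ubiquinone module genes, 6 of 8 proximal-arm and 7 of 10 distal-arm genes rose, with medians of 0.50, 0.76, 0.47 and 0.81. Upper-quartile scaling, which lowers the median of all genes by a further 0.22, gave 22 higher and 4 lower, and the distance of the members' median from that of all genes stayed at 0.82. With the unstimulated share subtracted 28 were higher and 2 (Ndufa6 and Ndufv3) lower, with a median of 0.92 (0.94 with the library of the same run).

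In KO-labelled cells 35 of 36 members rose and 0 fell at that threshold, where 39.3% of all genes rose and 42.4% fell. No further member had an unadjusted p under 0.05, but DESeq2, library totals and upper-quartile scaling each called 1 lower. The median log2 change was 1.31, against -0.07 over all genes. It was 1.13 in the NADH module, 1.37 in the ubiquinone module, 1.11 in the proximal and 1.69 in the distal arm. With library totals, which lower the median of all genes by a further 0.33, 31 were higher and 1 lower.

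**Figure D2:**
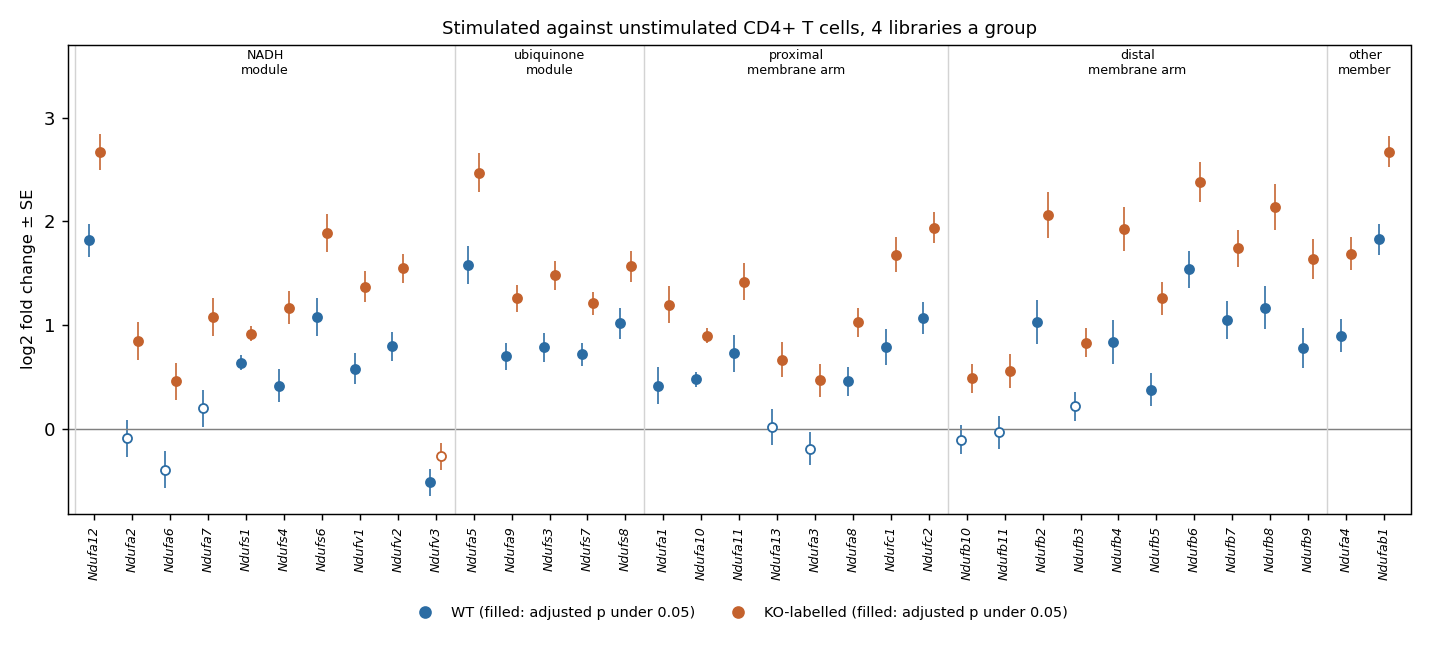
log2 fold change ± SE on stimulation for 35 of the 36 tested members, ordered by module, in WT and in KO-labelled cells; filled points have an adjusted p under 0.05. Ndufa12, Ndufa5, Ndufb6 and Ndufab1 lie highest in both genotypes, and Ndufv3 lies below 0 in both.

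The 7 nuclear-encoded core subunits rose together. Ndufv1 carries the flavin that accepts electrons from NADH, Ndufv2 and Ndufs1 hold iron-sulfur clusters that pass them on, and Ndufs3, Ndufs7 and Ndufs8 belong to the path to ubiquinone. All 7 core subunits were called higher in both genotypes, with medians of 0.72 in WT and 1.37 in KO-labelled cells. Ndufs8 rose most among them, by 1.02 in WT and 1.57 in KO-labelled cells. Ndufs1 stood at 94.5, 86.0, 85.5 and 90.1 CPM in WT unstimulated and at 153, 133, 121 and 147 CPM in WT stimulated libraries. Its groups did not overlap, and its change was 0.64 ± 0.07 (adjusted p = 7.4e-09). In KO-labelled cells Ndufs1 was at 83.5, 72.9, 77.9 and 81.9 CPM without and at 153, 139, 149 and 156 CPM with stimulation (0.92 ± 0.07, adjusted p = 2e-12). Ndufs1 and Ndufa10 had the smallest SE of the members. Ndufs8, which binds a pair of clusters near ubiquinone, was at 86.7, 51.3, 61.3 and 55.7 CPM in WT unstimulated and 142, 125, 140 and 111 CPM in WT stimulated libraries (1.02 ± 0.15, adjusted p = 6.5e-07).

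Per kilobase the core subunits were not equal. In WT stimulated cells Ndufv2 (108 ± 10.5 CPM per kb) and Ndufs8 (100 ± 11.3) stood highest of those described here and did not differ beyond their spread. Ndufv1 (67.5 ± 7.67), Ndufs7 (43.4 ± 5.24) and Ndufs3 (35.3 ± 3.95) followed. Ndufs1 was lowest at 17.1 ± 1.76 CPM per kb over an annotated exon length of 8086 bases, the longest among the members.

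The strongest rises were in accessory genes. Ndufab1 (chromosome 7, 122085403 to 122101886, minus strand, mm10), the mitochondrial acyl carrier protein, is a subunit of complex I and also serves fatty acid and lipoate synthesis. It was at 37.3, 19.9, 23.7 and 20.7 CPM in WT unstimulated and at 99.5, 84.7, 95.3 and 81.2 CPM in WT stimulated libraries. In KO-labelled cells Ndufab1 went from 17.6, 17.6, 19.0 and 18.7 CPM to 131, 124, 95.2 and 113 CPM. The groups lay far apart in both genotypes, a 3.56-fold rise in WT (log2 1.83 ± 0.15, adjusted p = 1.4e-11) and a 6.35-fold rise in KO-labelled cells (2.67 ± 0.15, adjusted p = 3e-15).

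Ndufa12 (chromosome 10, 94198720 to 94221443, plus strand), an accessory subunit that completes the NADH module, behaved similarly. Its WT libraries were at 33.2, 19.7, 21.7 and 21.9 CPM before and 98.0, 77.5, 92.0 and 73.2 CPM after stimulation, a rise of 1.82 ± 0.16 (adjusted p = 1e-10). Its KO-labelled libraries were at 14.8, 16.9, 13.7 and 19.0 CPM and then at 115, 120, 79.7 and 96.7 CPM, a rise of 2.67 ± 0.17 (adjusted p = 2.1e-14). Ndufa5, an accessory subunit of the ubiquinone module, rose by 1.58 ± 0.18 and 2.47 ± 0.19 in the 2 genotypes (adjusted p = 1.1e-08 and 1e-12). Ndufb6 rose by 1.54 ± 0.18 and 2.38 ± 0.19 (adjusted p = 2.1e-08 and 2.6e-12), with 257 of its 659 exon bases also in the opposite-strand gene Smim27. Ndufa4, named for complex I but now counted as a subunit of cytochrome c oxidase, rose by 0.90 ± 0.16 in WT and 1.69 ± 0.16 in KO-labelled cells (adjusted p = 1.5e-05 and 1.5e-10).

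Ndufv3 (chromosome 17, 31520115 to 31531331, plus strand), a small accessory subunit of the NADH module, went the other way. It was at 83.4, 54.4, 66.2 and 57.4 CPM in WT unstimulated and at 45.5, 53.4, 47.6 and 37.4 CPM in WT stimulated libraries. Each stimulated library was lower than each unstimulated one, and Ndufv3 fell by 0.51 ± 0.13 on the log2 scale (adjusted p = 0.0015). Without WT unstimulated replicate 1 the change of Ndufv3 was -0.28 (adjusted p = 0.048), and with the unstimulated share subtracted it was -0.76. In KO-labelled cells Ndufv3 was at 46.8, 50.7, 48.7 and 53.7 CPM and then at 46.3, 47.0, 35.2 and 38.9 CPM, with overlap and a change of -0.26 ± 0.13 (adjusted p = 0.081). Ndufa6, an accessory subunit that docks the acyl carrier protein in the peripheral arm, showed the next lowest change. Its level was 241, 123, 185 and 137 CPM in WT unstimulated and 144, 130, 152 and 98.7 CPM in WT stimulated libraries, which overlap (-0.39 ± 0.18, adjusted p = 0.056). Its call depended on the setting: Ndufa6 was called lower with the run as a replicate block (-0.38 ± 0.15, adjusted p = 0.022), with library totals (-0.45, adjusted p = 0.0074) and with the unstimulated share subtracted (-0.59, adjusted p = 0.0081), and its change was -0.09 without WT unstimulated replicate 1. In KO-labelled cells Ndufa6 rose by 0.46 ± 0.18 (adjusted p = 0.023), from 82.2, 99.4, 78.8 and 91.0 CPM to 136, 150, 89.6 and 107 CPM. That call was lost in 4 of 8 fits that left out 1 library (without KO-labelled unstimulated replicate 1 or 3 or stimulated replicate 1 or 2), with changes of 0.34 to 0.55 over the 8, and it was also lost with library totals (0.12) and upper-quartile factors (0.20). Beside Ndufa6, the members not called in WT were Ndufa2, Ndufa3, Ndufa7, Ndufa13, Ndufb3, Ndufb10 and Ndufb11, with changes of -0.19 to 0.22. All 7 were called higher in KO-labelled cells, by 0.47 (Ndufa3) to 1.08 (Ndufa7).

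The change on stimulation was then compared between genotypes by an interaction term. It was larger in KO-labelled than in WT cells for 35 of 36 members, where 17.2% of all genes were called in that direction and 16.5% in the other. The median difference was 0.76 on the log2 scale. Ndufb4, a distal-arm accessory subunit, had the largest difference (1.10 ± 0.29, adjusted p = 0.0065), followed by Ndufb2 (1.03 ± 0.30, adjusted p = 0.011). Ndufs1 had the smallest called difference (0.28 ± 0.10, adjusted p = 0.034), a call lost in 7 of 16 fits without 1 library, and Ndufv3 was not called (0.25 ± 0.19, adjusted p = 0.31). The number depended on the WT libraries: it was 14 without WT unstimulated replicate 1, 20 with library totals and 3 (Ndufa2, Ndufa6 and Ndufb5) with the unstimulated share subtracted from the WT stimulated libraries, and the median difference was 0.51 both without that library and in that last setting. Without that library Ndufb2 was no longer called (0.70).

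That term holds the unstimulated libraries, in which the genotypes already differed. In unstimulated cells 31 of 36 members had lower levels in the KO-labelled libraries and 0 had higher ones, where 23.6% of all genes were called lower and 12.5% higher. None had an unadjusted p under 0.05 in the higher direction, and DESeq2 and limma-voom also called 0 higher. The median log2 difference was -0.54, against -0.08 over all genes. Ndufa6 showed the largest one, 82.2 to 99.4 CPM in KO-labelled against 123 to 241 CPM in WT libraries (-0.96 ± 0.18, adjusted p = 0.00036). Ndufb4 followed with 17.0 to 21.2 against 21.7 to 47.5 CPM (-0.74 ± 0.21, adjusted p = 0.0082). The smallest differences were those of Ndufs1 (-0.17 ± 0.07, adjusted p = 0.06) and Ndufs7 (-0.20 ± 0.11, adjusted p = 0.16), which were at 0.04 and 0.03 with library totals. Beside these 2, Ndufa13, Ndufb8 and Ndufs8 were not called.

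One library carried much of this difference. Without WT unstimulated replicate 1, the library with the highest complex I sum of its group, 3 members were called lower (Ndufa6, Ndufb5 and Ndufv1) and the median was -0.27. With the 2 unstimulated groups fitted alone 7 were called, and with library totals, which raise the median of all genes by 0.21, 15 were called and 71.7% of all calls were higher, against 34.6% with TMM. Ndufa6 (-0.70) and Ndufv1 (-0.39) illustrate what was left without that library, and Ndufb4 (-0.40) was no longer called. Ndufv1 itself was at 162 CPM in that library, at 90.8, 124 and 99.8 CPM in the other WT ones and at 69.1 to 85.2 CPM in the KO-labelled ones.

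**Figure D3:**
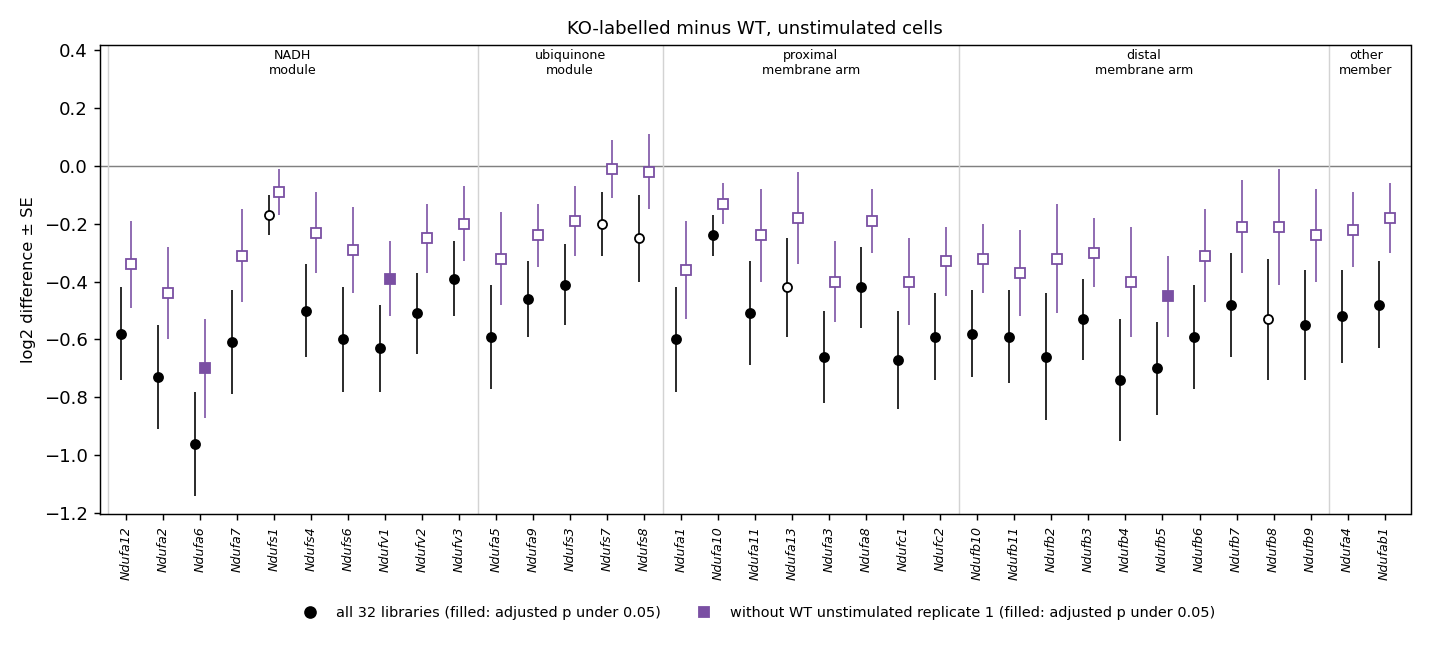
log2 difference ± SE, KO-labelled minus WT, in unstimulated cells for 35 of the 36 tested members with all 32 libraries (circles) and without WT unstimulated replicate 1 (squares); filled symbols have an adjusted p under 0.05. The median over all 36 moves from -0.54 to -0.27, and Ndufa6, Ndufb5 and Ndufv1 remain called.

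After stimulation the genotypes differed little. Of 36 members 1 was called higher in KO-labelled cells and 0 lower, where 7.31% of all genes were called higher and 17.9% lower. It was Ndufa10, a membrane-arm subunit of the nucleoside kinase family, at 121, 111, 108 and 113 CPM in WT and 150, 111, 130 and 128 CPM in KO-labelled libraries. The groups overlapped, and the difference was 0.19 ± 0.07 (adjusted p = 0.041). Of the 36 members 4 had an unadjusted p under 0.05, and DESeq2 called 3 higher and limma-voom 2. The median log2 difference was 0.21, against 0 over all genes, and 0 with the unstimulated share subtracted. Ndufb8 had the highest difference (0.44 ± 0.21, adjusted p = 0.12), with 1 KO-labelled library at 383 CPM and the others at 157, 230 and 191 CPM against 142 to 207 CPM in WT, and without the library at 383 CPM the difference of Ndufb8 was 0.16. The number called was 0 without WT stimulated replicate 2 or 4 or KO-labelled stimulated replicate 1 or 4, and 5 without KO-labelled stimulated replicate 3.

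XCT790 is used to block ERR-alpha, a receptor whose known targets include respiratory chain genes. The log2 change of Esrra with XCT790 was -0.53 ± 0.13 in WT (adjusted p = 0.003), and KO-labelled cells gave -0.61 ± 0.13 (adjusted p = 0.004). In WT cells 0 of 36 members were called in either direction, where 8.4% of all genes rose and 20.2% fell. Of the 36, 4 had an unadjusted p under 0.05, DESeq2 called 1 higher and limma-voom 0. The median change was 0.21, and 35 of 36 values were above 0. Ndufs6, an accessory subunit of the NADH module, had the highest value: 137, 123, 132 and 97.8 CPM with stimulation alone and 150, 186, 161 and 156 CPM with XCT790. The groups did not overlap, and the change was 0.41 ± 0.18 (adjusted p = 0.081). The lowest value was that of Ndufb10 (-0.07 ± 0.14, adjusted p = 0.76). With the unstimulated share subtracted from the WT stimulated libraries the median was 0.

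In KO-labelled cells XCT790 lowered 1 of 36 members and raised 0, where 5.07% of all genes fell and 6.2% rose. Ndufa5 went from 118, 126, 71.7 and 89.7 CPM to 72.9, 80.5, 53.7 and 73.8 CPM. The groups overlapped through replicate 3, and Ndufa5 fell by 0.53 ± 0.18 (adjusted p = 0.049). With the run of libraries as a replicate block the fall was 0.51 and 5 members were called, namely Ndufa12, Ndufa5, Ndufab1, Ndufs1 and Ndufs3, all lower. The median over 36 members was -0.18, against 0.02 over all genes. Ndufv3 had the highest value (0.17 ± 0.13, adjusted p = 0.46) and Ndufb8 the next lowest after Ndufa5 (-0.44 ± 0.21, adjusted p = 0.18), although Ndufb8 was at -0.14 without KO-labelled stimulated replicate 1. The call of Ndufa5 was lost in 5 of 8 fits without 1 library (KO-labelled stimulated replicate 1 or 2 or XCT790 replicate 1, 3 or 4), whereas 3 members were called without KO-labelled stimulated replicate 3.

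The effect of XCT790 differed between genotypes for 3 members, Ndufa12 (-0.75 ± 0.22, adjusted p = 0.015), Ndufab1 (-0.56 ± 0.20, adjusted p = 0.044) and Ndufs1 (-0.30 ± 0.10, adjusted p = 0.028), each lower in KO-labelled cells relative to WT. Among all genes 7.23% were called in that direction and 17.5% in the other. The count of 3 members is near the first of these shares, so it is not read as particular to complex I. Ndufa12 was at 92.8, 121, 127 and 96.8 CPM with XCT790 in WT, and at 84.8, 86.7, 59.9 and 83.2 CPM with XCT790 in KO-labelled cells. Its 4 KO-labelled libraries lay below the 4 WT ones. Neither change was called by itself (0.36 ± 0.16 in WT and -0.39 ± 0.16 in KO-labelled cells). The replicate block gave 13 members, DESeq2 gave 10, and subtraction of the unstimulated share gave 0. Leaving out KO-labelled stimulated replicate 3 gave 14, and leaving out WT stimulated replicate 2 gave 1. The shares of all genes called in these settings are not given, so these counts cannot be read as particular to complex I.

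CompA raised 7 of 36 members in WT cells and lowered 0, where 11.6% of all genes rose and 21.3% fell. The 7 were Ndufa12, Ndufa7 and Ndufv3 of the NADH module, Ndufc2 of the proximal arm, Ndufb6 of the distal arm, Ndufab1 and Ndufa4. The median was 0.28, against -0.04 over all genes, and 0 of the 7 core subunits were called. Of those core subunits 1 had an unadjusted p under 0.05. Ndufv3 had the largest rise, from 45.5, 53.4, 47.6 and 37.4 CPM to 65.3, 79.5, 58.8 and 61.9 CPM. Its groups did not overlap (0.53 ± 0.13, adjusted p = 0.003), and the level with CompA was near that of WT unstimulated cells (66.4 ± 9.14 and 65.4 ± 13.0 CPM). Ndufa4 followed with 282, 258, 259 and 218 CPM and then 341, 376, 353 and 337 CPM (0.47 ± 0.16, adjusted p = 0.023). At the other end Ndufa10 and Ndufs7 were at 0.00 ± 0.07 and 0.00 ± 0.11.

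That count moved with single libraries and with the share of unstimulated transcripts. It was 1 without WT stimulated replicate 4, 2 without WT stimulated replicate 2 or WT CompA replicate 4, 3 without WT CompA replicate 3, and 4 without WT CompA replicate 1 or 2 or WT stimulated replicate 3. After subtraction of the unstimulated share Ndufv3 alone was called (0.76), and the median was 0.06.

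In KO-labelled cells CompA lowered 4 of 36 members and raised 1, where 9.11% of all genes fell and 10.2% rose. The count of falls is near the share of all genes and that of rises below it. Neither count is read as particular to complex I. The 4 were Ndufa10 and the core subunits Ndufs1, Ndufs7 and Ndufs8. Ndufs7, which holds the last iron-sulfur cluster before ubiquinone, went from 105, 91.6, 78.5 and 89.9 CPM to 81.8, 68.7, 57.7 and 68.0 CPM (-0.40 ± 0.11, adjusted p = 0.011). Ndufs8 went from 205, 166, 123 and 143 CPM to 143, 116, 97.1 and 119 CPM (-0.42 ± 0.15, adjusted p = 0.042). Both overlapped between groups, although within every run of libraries the CompA value was the lower one. Ndufs1 changed by -0.21 ± 0.07 (adjusted p = 0.037) and Ndufa10 by -0.24 ± 0.07 (adjusted p = 0.017). The member called higher was Ndufv3, at 46.3, 47.0, 35.2 and 38.9 CPM without and 62.8, 55.8, 46.8 and 61.6 CPM with CompA (0.44 ± 0.13, adjusted p = 0.021). That call was lost in 4 of 8 fits without 1 library (stimulated replicate 3 or 4, CompA replicate 1 or 4), with changes of 0.37 to 0.52 over the 8. The median over 36 members was -0.20, against 0.03 over all genes, and -0.09 without KO-labelled CompA replicate 3.

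The replicate block raised the count in KO-labelled cells to 9, 8 lower and Ndufv3 higher, adding Ndufa5, Ndufb2, Ndufb8 and Ndufs3. It was 2 without KO-labelled stimulated replicate 1 or without CompA replicate 2, 3 or 4, 9 without CompA replicate 1, and 0 when only the 2 groups were fitted. Ndufb2 had the lowest value (-0.56 ± 0.21, adjusted p = 0.06) and Ndufb8 the next (-0.53 ± 0.21, adjusted p = 0.073). Without KO-labelled stimulated replicate 1 they were at -0.37 and -0.23.

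**Figure D4:**
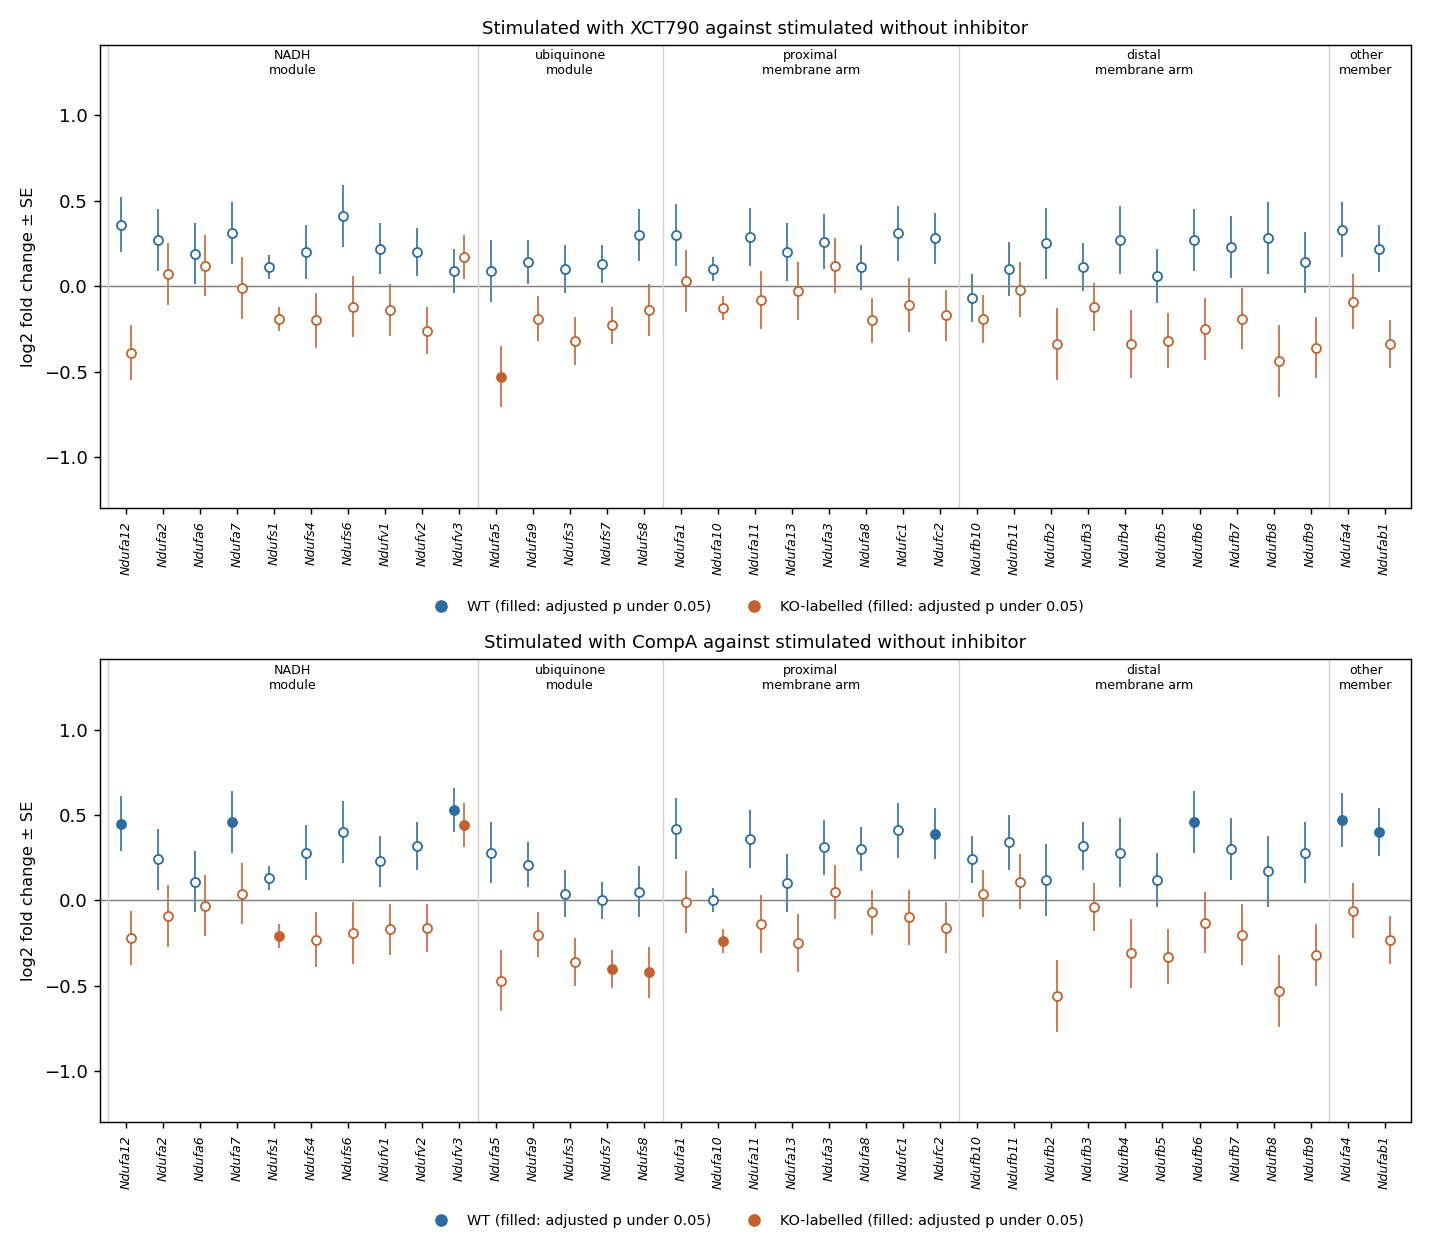
log2 fold change ± SE of 35 of the 36 tested members with XCT790 (top) and with CompA (bottom), each against stimulation without inhibitor, in WT and in KO-labelled cells; filled points have an adjusted p under 0.05. Over all 36, WT medians are 0.21 and 0.28, KO-labelled medians -0.18 and -0.20, and Ndufv3 is called higher with CompA in both genotypes.

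The effect of CompA differed between genotypes for 4 members, all lower in KO-labelled cells relative to WT, where 5.99% of all genes were called in that direction and 15.6% in the other. These were Ndufa5 (-0.74 ± 0.25, adjusted p = 0.032, lost in 6 of 16 fits without 1 library), Ndufa12 (-0.67 ± 0.22, adjusted p = 0.031), Ndufab1 (-0.63 ± 0.20, adjusted p = 0.026) and Ndufs1 (-0.34 ± 0.10, adjusted p = 0.017). For Ndufv3 the difference was -0.09 ± 0.19 (adjusted p = 0.78). The median over 36 members was -0.44. The count was 21 with the replicate block, 14 with DESeq2 and 0 with the unstimulated share subtracted. Single libraries moved it from 0 (without WT stimulated replicate 2) and 1 (without WT stimulated replicate 4 or KO-labelled CompA replicate 3) to 15 (without KO-labelled stimulated replicate 3) and 25 (without KO-labelled CompA replicate 1). The shares of all genes called under these alternatives are not given, so these moves cannot be read as particular to complex I.

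The 2 compounds, which the labels do not describe as related, were also compared directly at the same dose. In WT 1 of 36 members was lower with XCT790 than with CompA and 0 were higher, where 5.08% of all genes were lower and 4.33% higher. It was Ndufv3, at 46.0, 61.3, 44.3 and 44.5 CPM with XCT790 against 65.3, 79.5, 58.8 and 61.9 CPM (-0.44 ± 0.13, adjusted p = 0.038). The groups overlapped through replicate 2 of XCT790, and the call was lost without WT XCT790 replicate 1, 3 or 4 or WT CompA replicate 1, 2 or 4. Ndufs8 lay at the other end, with 146, 180, 156 and 157 CPM against 129, 145, 131 and 130 CPM (0.25 ± 0.15, adjusted p = 0.33). In KO-labelled cells 0 of 36 members were called, where 1.97% of all genes were higher and 1.27% lower. By unadjusted p 0 were under 0.05, and DESeq2 and limma-voom called 0. The values ran from -0.27 ± 0.13 (Ndufv3) to 0.28 ± 0.15 (Ndufs8). A p that misses the threshold does not show that the compounds act alike on these genes.

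Under the inhibitors, KO-labelled and WT cells differed in few members. With XCT790 0 of 36 were called, where 7.4% of all genes were higher in KO-labelled cells and 2.11% lower. By unadjusted p 2 were under 0.05, DESeq2 called 2 lower and limma-voom 1. The largest difference was that of Ndufa12 (-0.48 ± 0.16, adjusted p = 0.054), whose values are given above. With CompA 1 of 36 was called lower and 0 higher, where 1.88% of all genes were lower and 5.82% higher. It was Ndufs1, at 154, 146, 150 and 155 CPM in WT and 139, 118, 126 and 132 CPM in KO-labelled cells. The groups did not overlap (-0.23 ± 0.07, adjusted p = 0.044). That call was lost without any 1 library of these 2 groups other than KO-labelled CompA replicate 1.

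Other genes of the pathway were followed as lists. Of 39 genes of complexes II to V, 31 rose and 0 fell on stimulation in WT (median 0.74), and 38 rose and 0 fell in KO-labelled cells (median 1.5). By unadjusted p the counts were the same, 31 and 38. Among all genes tested 34.5% rose and 38.8% fell in WT, and 39.3% rose and 42.4% fell in KO-labelled cells. In unstimulated cells all 39 were lower in the KO-labelled libraries (median -0.57), where 23.6% of all genes were lower and 12.5% higher. Without WT unstimulated replicate 1, 10 of the 39 were called lower (median -0.31), a setting chosen after seeing the data.

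Of the 19 complex I assembly factors found 9 were lower there and 0 higher (13 with an unadjusted p under 0.05, median -0.37), and without that library 5 were lower (median -0.14). Assembly factors put the modules together and do not stay in the finished enzyme. On stimulation 14 of the 19 rose and 1 fell in WT (median 0.95), and 16 rose and 1 fell in KO-labelled cells (median 1.32). Among all genes 34.5% rose and 38.8% fell in WT, and 39.3% rose and 42.4% fell in KO-labelled cells. Ndufaf4, an assembly factor of the peripheral arm, rose most (2.15 ± 0.11 in WT and 2.77 ± 0.11 in KO-labelled cells, adjusted p = 1.8e-16 and 5.6e-19). Ndufaf6 followed (2.01 ± 0.22 and 2.73 ± 0.22, adjusted p = 4.5e-09 and 4.7e-12). Ndufaf2, the assembly-stage paralogue of Ndufa12, rose by 1.29 ± 0.15 and 2.01 ± 0.15 (adjusted p = 1.1e-08 and 7e-13). The factor that fell in both was Atp5sl, the older symbol of Dmac2 (-0.28 and -0.30). Ndufaf4 also fell with each inhibitor in KO-labelled cells, by 0.58 ± 0.10 with XCT790 (adjusted p = 0.00053) and by 0.65 ± 0.10 with CompA (adjusted p = 6.5e-05).

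Of 13 biogenesis regulators 10 were tested, of which 5 rose and 2 fell in WT and 5 rose and 3 fell in KO-labelled cells. Of all genes tested 34.5% rose and 38.8% fell in WT, and 39.3% rose and 42.4% fell in KO-labelled cells. With 10 genes tested, these counts are not read as a result about the list. Myc, which drives growth of activated T cells, rose by 2.55 ± 0.14 in WT and 2.89 ± 0.14 in KO-labelled cells (adjusted p = 1.9e-15 and 6.4e-17). Pprc1, a coactivator of the PGC-1 family, rose by 1.56 ± 0.15 and 1.70 ± 0.15 (adjusted p = 2.4e-10 and 1.7e-11), whereas its relative Ppargc1a averaged at most 0.0748 CPM in any group, below the level that 3 counts give in these libraries. Gabpb1, the partner of GABPA, rose by 0.54 ± 0.09 and 0.94 ± 0.09 (adjusted p = 8.1e-06 and 2.3e-10), and Tfam, the mitochondrial DNA packaging factor, by 0.38 ± 0.08 and 0.78 ± 0.08 (adjusted p = 2e-04 and 1.8e-09). Regulators with a lower mean after stimulation included Nrip1, at 57.1 ± 29.7 and then 35.6 ± 13 CPM in WT. In KO-labelled cells Nrip1 was at 63 ± 19 and then 21 ± 5.6 CPM. Nrf1 was at 59.7 ± 3.16 and then 53 ± 1.96 CPM in WT, and at 58.7 ± 4.94 and then 55.8 ± 2.81 CPM in KO-labelled cells. Esrra was not called on stimulation (-0.17 ± 0.13 in WT and -0.01 ± 0.13 in KO-labelled cells). Yy1 was at 0.02 ± 0.09 in WT (adjusted p = 0.84) and fell by 0.20 ± 0.09 in KO-labelled cells (adjusted p = 0.038).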

How the data were processed

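The deposited files hold raw read counts per gene, 24302 genes and 5 summary lines in each of 32 libraries. Per the submitters' processing notes the tools were Trimmomatic 0.36, HISAT2 2.1.0, SAMtools, HTSeq 0.9.1, R 3.4.4 and DESeq2 1.18.1 with build mm10; their settings, the strand setting of the counting included, are not given in the sources used here. Per the labels' protocols libraries were poly(A)-selected and made with a directional kit. The summary lines were left out of the totals and the fit; reads in no feature came to 5.69 to 15.6 and ambiguous reads to 1.18 to 2.58 for every 100 gene counts.

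Groups were taken from the labels. Counts were analysed in R 4.3.3 with edgeR 4.0.16 (filterByExpr, TMM, quasi-likelihood F test), with all 32 libraries in 1 fit, 15 contrasts, and Benjamini-Hochberg adjustment over the 12332 genes tested; adjusted p-values in the text come from this fit unless another tool is named. On simulated counts for stimulation in WT (11990 genes, 200 changed) the fit recovered 84% of 2-fold and 50% of 1.5-fold changes. No pair of libraries agreed within sampling noise.

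Consecutive title numbers form 8 runs of 4 libraries. No run holds both genotypes, so differences between genotypes cannot be told apart from differences between runs. For KO-labelled against WT the replicate block was a random term in limma-voom, which does not remove this. For the other comparisons it was a fixed term in edgeR. Deviations of libraries of the same run from their group means correlated at 0.19 to 0.69 in all pairs of KO-labelled groups. In WT they did so between unstimulated and stimulated (0.37 to 0.56) and between XCT790 and CompA (0.17 to 0.49), but not in the other pairs (-0.22 to 0.31). The main fit has no run term, so its results are unpaired in both genotypes. The run entered only as a block in an alternative.

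Alternatives were library totals, upper-quartile factors, DESeq2 1.42.0, limma-voom (limma 3.58.1), no filter, only the groups compared, the run as a block, each library left out, the members without Ndufa4 and Ndufa4l2, and subtraction of an unstimulated share. Singled out by rule were the core subunits, Ndufa4, Ndufa4l2, Ndufab1, the 2 highest and 2 lowest changes in each comparison, members called against the majority, and members removed by the filter; other names were chosen after their values were seen. Values of 1 member are not reported here and are left out of the figures, though it counts in all totals. The members and all lists were chosen with earlier results of these data known.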

Additional observations from a re-analysis of the deposited data

Results flagged for a closer look

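Libraries far from the other 3 of their group (gap over range above Dixon's critical value) were found for 13 of 200 sets of values tested, and chance flags about 1 in 20 sets. Levels are in CPM. In WT cells with CompA, replicate 2 was high for Ndufb11 (177 against 147 to 149), Ndufs8 (145 against 129 to 131) and Ndufv2 (305 against 282 to 285), and replicate 4 was high for Ndufb4 (68.7 against 65.4 to 66). In WT cells with XCT790, replicate 2 was high for Ndufb10 (104 against 84.4 to 87.3) and Ndufv3 (61.3 against 44.3 to 46), and replicate 1 was low for Ndufs7 (72.7 against 83.5 to 85.6). In WT stimulated cells replicate 4 was low for Ndufb10 (72.6 against 100 to 103), and in WT unstimulated cells replicate 1 was high for Ndufa12 (33.2 against 19.7 to 21.9). In KO-labelled cells replicate 3 was low for Ndufa12 with XCT790 (59.9 against 83.2 to 86.7) and with CompA (67.2 against 92.7 to 97.2), and for Ndufs3 with XCT790 (58.9 against 77.8 to 81.5). Ndufa10 was high in replicate 1 of KO-labelled cells with XCT790 (128 against 114 to 116).

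Changes that differed between genotypes by the interaction term were those of 35 members on stimulation, 3 with XCT790 and 4 with CompA. The 3 with XCT790 are near the share of all genes called in that direction (7.23%). On the log2 scale, KO-labelled minus WT, those of the genes at the ends of the range were 1.10 for Ndufb4, 1.03 for Ndufb2 and 0.28 for Ndufs1 on stimulation, -0.75 for Ndufa12 with XCT790 and -0.74 for Ndufa5 with CompA.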

How the results depend on the processing

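Values are numbers of members called, and the cause of each move was not tested. The share of all genes called under each alternative is given neither here nor above, so these counts are not results about complex I alone. For stimulation, KO-labelled minus WT, the number was 20 with library totals, 14 with only the groups compared and 3 with the unstimulated share subtracted in either form, and 35 with the replicate block. For KO-labelled against WT it was, in unstimulated cells, 15 with library totals and 7 with only the groups; in stimulated cells, 2 with library totals, upper-quartile factors or limma-voom, 3 with DESeq2, no filter or the replicate block, and 0 with only the groups or with the share subtracted in either form; with XCT790, 1 with library totals, limma-voom, only the groups or the block and 2 with DESeq2; and with CompA, 0 with library totals, upper-quartile factors, no filter or only the groups. XCT790 in WT gave 1 with DESeq2, 4 with only the groups and 2 with the replicate block, in KO-labelled cells 3 with library totals or DESeq2, 0 with only the groups and 5 with the block, and for the difference 10 with DESeq2, 13 with the block and 0 with the share subtracted in either form. CompA in WT gave 11 with DESeq2, 17 with only the groups, 16 with the block, 1 with the share subtracted and 2 with that of the same run. In KO-labelled cells it gave 8 with library totals, 9 with DESeq2 or the block and 0 with only the groups, and for the difference 14, 21 and 0 with DESeq2, the block and the share subtracted in either form. XCT790 against CompA in WT gave 2 with library totals, 0 with no filter and 5 with only the groups.

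Leaving out 1 library at a time gave 24 to 30 for stimulation in WT, 34 to 35 in KO-labelled cells and 14 to 35 for their difference. KO-labelled against WT gave 3 to 35 in unstimulated and 0 to 5 in stimulated cells, 0 to 1 with XCT790 (1 without WT XCT790 replicate 1) and 0 to 1 with CompA. XCT790 gave 0 to 1 in WT (1 without WT XCT790 replicate 1), 0 to 3 in KO-labelled cells and 1 to 14 for the difference (also 5 without WT stimulated or WT XCT790 replicate 1 and 7 without KO-labelled XCT790 replicate 1). CompA gave 1 to 9, 2 to 9 and 0 to 25, and XCT790 against CompA in WT gave 0 to 1. The members' median turned to -0.02 for KO-labelled against WT stimulated cells and for XCT790 in WT with the share of the same run subtracted. For XCT790 against CompA in KO-labelled cells it was -0.02 with library totals, -0.01 with upper-quartile factors and -0.10 to 0.11 without single libraries. Of values for single named genes under alternatives, 939 stayed on the same side of the threshold, 57 passed it newly and 56 lost it. Direction reversed in 0 cases where either fit made a call, but the 939 include uncalled values that changed sign. At these depths (16020288 to 23687940 counts), simulated 1.5-fold changes for stimulation in WT were recovered in 50% of cases. The changed genes were drawn from genes of many levels, not from the members in particular, and changes were simulated for no other comparison. Differences in members could be missed, but how often is not known from this simulation.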
